A study of Mus musculus with 18 samples.

Results

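The genes described here encode transcription factors that give cells of the embryo their position in the limb, the trunk or the head, measured in extraocular muscle, which turns the eyeball, and in the leg muscle and heart of the same kinds of mice. They were taken as every probe set of the array that carries 1 gene symbol starting with Hoxa, Hoxb, Hoxc, Hoxd, Tbx, Pitx, Meis, Msx, Dlx, Lbx or Nkx2-, or that names a numbered gene of the Pax or the sine oculis (Six2, Six4) family. This gave 90 of 12422 probe sets and 72 of 8251 genes. The rule used names and no measured value. Hox genes made up 40 probe sets (32 genes), and the other families made up 50 (40 genes). No symbol starting with Lbx was found. The letters Tbx also brought in 3 probe sets of Tbxa2r, the thromboxane receptor, and Tbxas1, thromboxane synthase, which are not transcription factors. Another 5 probe sets carry the symbols of antisense or opposite-strand transcripts (Dlx1as, Dlx6os2 and Hoxa11os). Tbx5, Tbx1, Pax7 and Hoxc10 are not analysed here.

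Total RNA was hybridised to 18 Affymetrix arrays, 3 for each of 3 tissues in each of 2 genotypes, at 8 weeks of age. The controls are mdx mice, which carry a mutation of dystrophin, the protein that ties the muscle membrane to the actin cytoskeleton. The second genotype is labelled dKO and is called dko here. By usual usage the term means loss of both dystrophin and its relative utrophin, but the labels do not spell it out, and no mouse with intact dystrophin is analysed here. The series title calls the leg muscle hindlimb, the labels name neither the muscle taken nor the strain, and they do not state whether arrays of a group come from different animals, so a p-value here measures the spread between samples, which may be technical.

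Hox genes lie in 4 clusters, and their order along a cluster follows the level of the body axis at which they are active, with the genes at the end of each cluster serving the hind trunk and the limbs. Head muscles, the extraocular muscles among them, come from mesoderm in front of the Hox domain and use other regulators, and heart muscle is specified by a network that includes Nkx2-5, T-box and GATA factors. Limb muscle precursors depend on Pax3, while Pitx1 and T-box genes shape limb and head tissue, and much of this positional expression is kept in the muscle and connective tissue of the adult.

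The sequences upstream of some genes that differed between tissues are shown first, because Hoxa9, Hoxa10 and Hoxa11 are neighbours that all read higher in leg than in extraocular muscle, Nkx2-5 and Meis1 read higher in heart, and Six4 read lower there. RefSeq promoters were found for 49 of the 72 genes (56 windows). Each line gives the 250 bases before an annotated start, 5′ to 3′ on the strand of the gene, in build GRCm38.p6. Capitals mark matches, on either strand, to the E box (CANNTG), the Nkx2-5 motif (TNAAGTG), the T-box core (AGGTGTG), a homeodomain core (TAATTA), the Pitx motif (TAATCC), the Meis motif (TGACAG), the GATA motif (GATAAG), the TATA box (TATAAA) or the CCAAT box (CCAAT). The windows lie on the minus strand at chr6:52227371-52227620 for Hoxa9, chr6:52234940-52235189 and chr6:52240855-52241104 for 2 starts of Hoxa10, and chr6:52245811-52246060 for Hoxa11. Those of the other genes are also on the minus strand, at chr17:26841566-26841815 for Nkx2-5, chr11:19018970-19019219 for Meis1 and chr12:73113426-73113675 for Six4. Another annotated start of Six4 has a window at chr12:73113246-73113495, which overlaps the one shown, holds none of these motifs and is not printed.
Hoxa9: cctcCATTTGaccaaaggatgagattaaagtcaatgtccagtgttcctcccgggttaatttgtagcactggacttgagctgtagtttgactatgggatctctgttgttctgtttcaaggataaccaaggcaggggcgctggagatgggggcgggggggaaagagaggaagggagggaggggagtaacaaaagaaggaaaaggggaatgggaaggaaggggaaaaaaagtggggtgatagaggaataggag
Hoxa10, window at the lower coordinate: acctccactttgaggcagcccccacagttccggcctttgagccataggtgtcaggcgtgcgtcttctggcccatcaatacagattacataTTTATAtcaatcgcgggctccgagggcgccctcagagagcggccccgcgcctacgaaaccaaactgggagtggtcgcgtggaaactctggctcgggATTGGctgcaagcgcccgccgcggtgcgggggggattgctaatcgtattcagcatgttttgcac
Hoxa10, window at the higher coordinate: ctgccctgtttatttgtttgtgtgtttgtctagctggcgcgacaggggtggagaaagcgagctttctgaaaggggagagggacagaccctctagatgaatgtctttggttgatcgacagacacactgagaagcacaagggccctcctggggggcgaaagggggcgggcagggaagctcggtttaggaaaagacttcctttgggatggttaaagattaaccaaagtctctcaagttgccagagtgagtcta
Hoxa11: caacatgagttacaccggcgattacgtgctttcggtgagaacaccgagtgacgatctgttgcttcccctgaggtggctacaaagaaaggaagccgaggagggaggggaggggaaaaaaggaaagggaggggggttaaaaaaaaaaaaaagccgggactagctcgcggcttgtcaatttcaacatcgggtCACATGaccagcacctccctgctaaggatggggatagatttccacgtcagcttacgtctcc
Nkx2-5: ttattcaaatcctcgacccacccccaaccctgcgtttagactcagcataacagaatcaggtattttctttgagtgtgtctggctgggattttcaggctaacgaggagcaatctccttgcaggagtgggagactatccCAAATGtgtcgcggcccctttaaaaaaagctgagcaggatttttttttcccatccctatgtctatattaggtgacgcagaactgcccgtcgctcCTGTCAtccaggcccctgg
Meis1: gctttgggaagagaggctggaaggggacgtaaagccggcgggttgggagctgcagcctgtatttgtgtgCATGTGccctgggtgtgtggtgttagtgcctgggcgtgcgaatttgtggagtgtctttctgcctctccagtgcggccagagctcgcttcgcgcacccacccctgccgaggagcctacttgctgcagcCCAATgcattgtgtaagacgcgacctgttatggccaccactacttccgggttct
Six4: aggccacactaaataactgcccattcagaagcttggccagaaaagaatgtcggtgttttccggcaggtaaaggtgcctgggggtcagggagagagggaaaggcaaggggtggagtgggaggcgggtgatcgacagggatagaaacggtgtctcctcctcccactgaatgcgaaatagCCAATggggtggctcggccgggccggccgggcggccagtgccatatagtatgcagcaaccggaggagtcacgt

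The windows of these families were richer in G and C than promoters in general, with a median of 60.2% against 52.4% over all 32851 windows of the table, and held a median of 13 CpG pairs against 6. An E box was found in 57.1% of their windows and in 66.2% of all windows. The CCAAT box was in 48.2% and 33.8%, the Meis motif in 21.4% and 15.9%, the TATA box in 14.3% and 12.4%, and the Nkx2-5 motif in 10.7% and 10.1%. The homeodomain core was in 7.1% and 4.8%, the GATA motif in 3.6% and 6.5%, the T-box core in 1.8% and 5.1%, and the Pitx motif in 0.0% and 6.3%. These shares describe letters in a short window and were not tested.

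Signals are intensity units on a linear scale, as deposited. Differences are on a log2 scale after 166.7 units were added to every value, which makes the folds of weak signals smaller than their intensity ratios. Calls come from limma with an adjusted p under 0.05 over the 8888 probe sets that passed a filter on low signal. Of the 90 probe sets 46 (40 genes) passed the filter and 44 did not. Among those that passed were 8 of 16 for Hoxa, 7 of 10 for Hoxb, 4 of 5 for Hoxc and 3 of 9 for Hoxd, 1 of 9 for Dlx, 0 of 3 for Meis, 5 of 9 for Pax and 4 of 8 for the sine oculis family. Some passed only through the tissue in which they were bright: Hoxa10 through 5 leg arrays, Hoxc9 through the 6 leg arrays and Nkx2-5 through the 6 heart arrays. Hoxa5 also passed only through leg arrays. The files used here give no detection call, and signals of different probe sets are not compared with each other.

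The arrays numbered 3 stood apart in every group, with medians of 525.6 to 573.8 units against 612.6 to 671.8 on numbers 1 and 2. Leg mdx array 2 also stood apart from the other leg arrays in 1 probe set each of Myh4 and Actn3. It read 461.3 units for Myh4, the fast myosin heavy chain, against 10920 to 48680 on the other 5 leg arrays. For Actn3, the actinin of fast fibres, it read 520.2 units against 10540 to 39330. A second probe set of Actn3 did not set it apart, with 8196 to 12370 units in mdx leg and 5777 to 12650 in dko leg. Tnnt3, the troponin T of fast fibres, read 19490 to 73100 units in mdx leg and 30020 to 47020 in dko leg. The leg groups also differed in Myh7, the slow myosin heavy chain, which read 241.2, 1999 and 363 units on the mdx leg arrays and 17630, 15030 and 16150 on the dko ones. Utrn, the gene for utrophin, was checked first: its probe set 92507_at read 437.6 to 550.7 in mdx and 239.6 to 298.2 in dko leg, 553.3 to 1086 and 220.2 to 414.3 in extraocular muscle, and 587.6 to 672.1 and 219.9 to 292.3 in heart, without overlap in any tissue. A second probe set of Utrn overlapped in leg (437.8 to 738.2 in mdx and 233.0 to 645.7 in dko) and not in the other tissues. Of 11 heart muscle markers tested 9 were higher in heart than in leg, and of 12 skeletal muscle markers 10 were lower. Of 3 markers of extraocular fibres 1 was tested, and it was not called between extraocular and leg muscle (log2 difference 0.60). It was called higher in heart than in leg (1.16), so it does not mark extraocular muscle alone here. The identity of the extraocular samples rests on their labels.

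Between tissues 17 of the 46 probe sets tested were called in at least 1 comparison, where 25.3% of all probe sets tested were, and between genotypes 0. In leg muscle the trunk and limb genes Hoxa10, Hoxc9, Hoxa9 and Hoxa5 were brighter than in extraocular muscle, with log2 differences of -1.83 to -0.71 for extraocular muscle against leg. Tbx15, a T-box gene of head, limb and fast fibre development, and Pitx1, the hindlimb and head homeobox gene, were brighter in extraocular muscle, by 0.79 to 1.14 on the log2 scale. Of these calls between extraocular and leg muscle, only those of Hoxa10 and Hoxc9 held in every alternative run. Heart read lower than both muscles for Tbx15 and for Six4, an activator of the myogenic programme. It read lower than leg for Hoxa10, Hoxc9 and Hoxd8 93221_at, calls that held in every alternative, and for Hoxa5, whose call did not. Nkx2-5, the cardiac homeobox gene, was 3.70 higher on the log2 scale in heart than in leg.

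The first question is where extraocular muscle, which arises in the head, differed from leg muscle in its positional genes. Of the 46 probe sets tested, 3 were higher and 4 lower in extraocular muscle, which is 15.2%, against 7.74% of all probe sets tested. By direction these were 6.52% higher and 8.7% lower, against 4.51% and 3.23%. Of the 4 lower, Hoxa10 and Hoxc9 passed the filter only through leg arrays, where they were bright. With no filter 6 of 90 probe sets were called, which is 6.67%, against 5.62% of all. The median log2 difference of the 46 was -0.0245, and that of all probe sets tested was -0.00944. With the replicate number as a block 11 were called, 5 higher and 6 lower, and 20.0% of all probe sets tested, 9.99% higher and 9.98% lower. Without leg mdx array 2 the count was 6.

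Hoxa10, which patterns the lumbar spine and the proximal hindlimb, gave 632.5, 429 and 384 units on the mdx leg arrays 1 to 3 and 481, 442 and 209 on the dko ones. In extraocular muscle it gave 30.7, 5.8 and 19.8 in mdx and 10.5, 16.6 and 18.9 in dko. Every extraocular array lay below every leg array (log2 difference -1.66 ± 0.162 (SE), adjusted p = 8.54e-06, -3.73 to -0.83 over the alternatives). Hoxc9, a gene of the thoracic trunk, is read by 1 probe set, 92891_f_at, whose suffix marks sets that may match a family of similar sequences. It gave 1119, 1203 and 845 units in mdx and 662, 838 and 649.6 in dko leg. Its extraocular arrays read 151, 134.5 and 162 in mdx and 76.4, 176 and 66.6 in dko. Again the arrays of the tissues did not overlap (log2 difference -1.83 ± 0.140 (SE), adjusted p = 7.17e-07, -2.68 to -1.13 over the alternatives). These were the only members tested whose extraocular and leg arrays did not overlap, 2 of 46, both lower, where 5.29% of all probe sets tested did not overlap, 3.06% higher and 2.23% lower. Both genes passed the filter only through leg arrays, so a high leg signal decided their place among the 46. Both calls held in every alternative that was run.

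Hoxa9, a neighbour of Hoxa10 that acts at the thoracic to lumbar level, ran over 306.4 to 666.5 units in leg (median 420.6) and 50.6 to 390.8 in extraocular muscle (median 172.8). The ranges overlapped, and the extraocular array was lower in 6 of 6 pairs of the same number and genotype (log2 difference -0.79 ± 0.230 (SE), adjusted p = 0.0467). That call ended on leaving out any 1 of 16 of the 18 arrays, all but extraocular mdx 1 and dko 1 (log2 difference -0.87 to -0.65 without them), and also with no filter, with offsets of 16 and 500 (-1.31 and -0.44) and with only the groups compared (adjusted p from 0.056 to 0.103). It held with the block (adjusted p = 0.00697). Hoxa5, which acts at the neck to thorax level and in the lung, ran over 293.9 to 541.2 units in leg (median 391.9) and 90.1 to 344.7 in extraocular muscle (median 167.3). It was lower in 5 of 6 pairs (log2 difference -0.71 ± 0.192 (SE), adjusted p = 0.0311). Its call ended without any 1 of 8 arrays, extraocular mdx or dko 2 or 3, leg mdx 1 or 3, or leg dko 2 or 3 (-0.70 to -0.63), and with only the groups compared (adjusted p = 0.0588), and held with the block (adjusted p = 0.00321).

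Hoxa11, the next gene of the cluster and a regulator of the forearm and shank, did not pass the filter. It gave 408.5, 395 and 547 units in mdx and 332, 376 and 461.5 in dko leg, and 79.0, 45.1 and 209 in mdx and 183, 49.4 and 52.5 in dko extraocular muscle. All leg arrays were above all extraocular arrays. In the fit of all 12422 probe sets it was called (log2 difference -1.15 ± 0.187 (SE), adjusted p = 0.00123), one of 6 of the 90 probe sets called there, against 5.62% of all. Of the 90 probe sets 3 did not overlap between extraocular muscle and leg, where 3.91% of all 12422 did not.

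**Figure D1:**
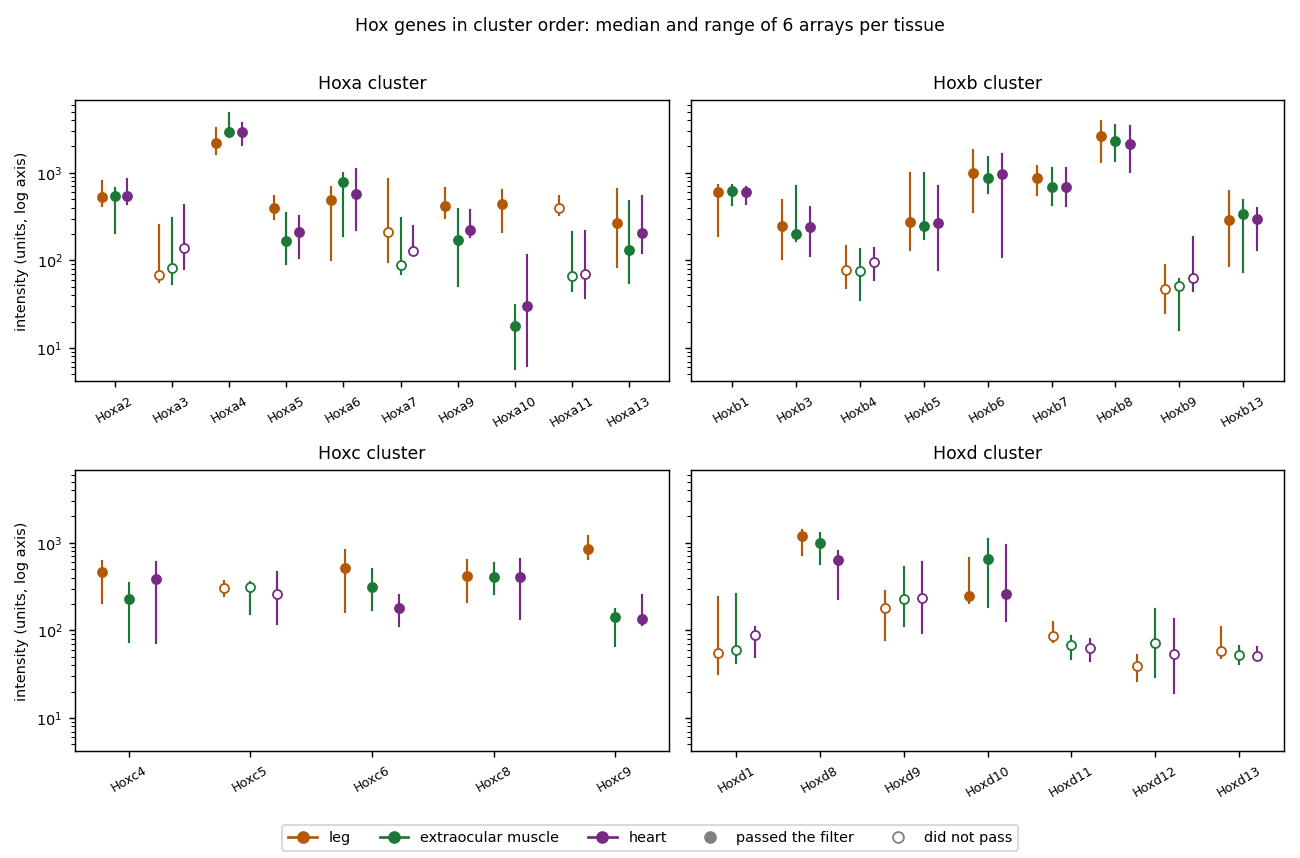
Hox genes in cluster order, with intensity on a log axis; points are medians and lines the lowest to highest of 6 arrays per tissue, with genotypes together, and open points mark probe sets below the filter. Leg lies above both other tissues without overlap for Hoxa10, Hoxa11 and Hoxc9; heights of different genes cannot be compared.

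Tbx15 differed in the other direction. Its probe set 102256_at gave 7804, 10015 and 6757 units in mdx and 8434, 11414 and 4485 in dko extraocular muscle, against 3329, 4873 and 3486 and 3834, 2594 and 2985.5 in leg. The extraocular array was higher in 6 of 6 pairs, though the ranges overlapped slightly (log2 difference 1.14 ± 0.205 (SE), adjusted p = 0.00204, 2.21-fold higher). Probe set 100355_g_at, with a median of 3735 in extraocular muscle and 1638 in leg, was also called (log2 difference 0.95 ± 0.238 (SE), adjusted p = 0.0197), and its call ended without leg mdx 1, leg dko 2 or either extraocular array numbered 3 (0.84 to 0.88), and with an offset of 16 (adjusted p = 0.0834). Probe set 100354_at had medians of 1092 and 778.2 and was not called without the block (log2 difference 0.70 ± 0.236 (SE), adjusted p = 0.093; 0.00903 with it). The call of 102256_at held without any single array, and ended without all 6 arrays of number 1 (1.14) or of number 2 (0.94).

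Pitx1 gave 1814, 2471.5 and 1309 units in mdx and 1753, 2247 and 1153 in dko extraocular muscle, and 1057.5, 1360.0 and 677 and 1029.5, 778 and 841 in leg. It was higher in 6 of 6 pairs with overlapping ranges (log2 difference 0.79 ± 0.225 (SE), adjusted p = 0.0429, 1.72-fold higher). The call ended without any 1 of 10 arrays (0.67 to 0.83): extraocular mdx or dko 1 or 2, leg mdx 1 or 3, any leg dko array, or heart dko 2. It ended too with no filter, an offset of 16 or only the groups compared (adjusted p = 0.0515, 0.0673 and 0.0535), and held with the block (adjusted p = 0.00163). With the block alone, Hoxa4 was called higher and Hoxc4 and Hoxd8 93221_at lower in extraocular muscle (log2 differences 0.50, -0.65 and -0.45; adjusted p = 0.0143, 0.0342 and 0.0434, and 0.187, 0.15 and 0.168 without it).

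Cell types other than muscle fibres also differed between these tissues, and in bulk RNA fewer cells of a type and less RNA per cell cannot be told apart. Of 6 Schwann cell markers tested 4 were higher in extraocular muscle, where their summed signal was 19227 to 29074 units against 5019 to 6906 in leg. Of 11 fibroblast markers 2 were higher and 0 lower, with sums of 112362 to 179554 against 84935 to 180332, ranges that overlap. Satellite cell sums were 14887 to 17912 against 16344 to 20144. Of 7 smooth muscle markers and of 9 endothelial markers 3 each were higher. Markers of retina and eye pigment gave 0 calls among 6 tested, and of 2 tested markers of lacrimal and Harderian gland 1 was higher. Blood markers summed to 27078 to 51020 units in extraocular muscle and 11365 to 19144 in leg, with 1 of 6 higher and 1 lower, and of 12 skin and mucosal epithelium markers 3 were higher and 1 lower. The part of these cells in the gene differences was not tested.

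The second question is how heart, a muscle with its own developmental origin, differed from leg. Of the 46 probe sets 1 was higher and 13 lower in heart, which is 30.4%, against 19.1% of all probe sets tested. By direction 2.17% were higher and 28.3% lower, against 9.56% and 9.5%. The 1 higher, Nkx2-5, passed the filter only through heart arrays, and Hoxa10, Hoxc9 and Hoxa5 among the lower only through leg arrays. With no filter 16 of 90 probe sets were called, which is 17.8%, against 13.7% of all. The 13 belong to 8 genes, and probe sets of one gene share their target. The median log2 difference of the 46 was -0.251, against 0.00421 for all probe sets tested. The block gave 20 calls (35.5% of all), 4 higher and 16 lower (18.3% and 17.2% of all), and leaving out leg mdx array 2 gave 11. This comparison and the one before it share the leg arrays.

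Nkx2-5, a homeobox factor required for heart formation, gave 1488, 3051 and 6981.5 units in mdx and 1741, 4066 and 6381 in dko heart. Leg read 73.8 to 139.6 (median 108.5) and extraocular muscle 49.5 to 172 (median 125). No heart array overlapped another tissue (log2 difference 3.70 ± 0.311 (SE), adjusted p = 2.22e-07 against leg; log2 difference -3.64 ± 0.311 (SE), adjusted p = 3.52e-07 for extraocular muscle against heart). In both genotypes array 1 read lowest and array 3 highest. Without the arrays of any 1 number the difference from leg stayed within 3.22 to 4.25.

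Meis1, a homeobox partner of Hox and Pbx proteins that also restrains cell division in heart muscle, did not pass the filter, like Meis2 and Meis3. It gave 157, 385.5 and 310.1 units in mdx and 329.9, 418 and 386 in dko heart, and 14.5 to 37.6 on all arrays of leg and extraocular muscle. The heart arrays did not overlap the others. In the fit of all probe sets it was called (log2 difference 1.32 ± 0.120 (SE), adjusted p = 9.55e-07 against leg; log2 difference -1.35 ± 0.120 (SE), adjusted p = 9.39e-07 for extraocular muscle against heart), among 16 and 12 of the 90 probe sets called there, where 13.7% and 10.9% of all were. Prox1, another homeobox gene of the heart and lymphatics below the filter, read 230.7 to 707.2 in heart and at most 145.4 elsewhere.

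Of the members called lower in heart, Tbx15 differed most. Its probe set 102256_at gave 33.0, 50.0 and 112.5 units in mdx and 30.8, 11.5 and 52.3 in dko heart, far below the leg and extraocular values above (log2 difference -4.09 ± 0.205 (SE), adjusted p = 5.3e-10 against leg; log2 difference 5.23 ± 0.205 (SE), adjusted p = 3.03e-11 for extraocular muscle against heart). The heart signals lie below the 25th percentile of every array (121.1 to 181.6), so the added offset sets the size of these differences, which ran over -5.91 to -2.85 and 3.93 to 7.09 in the alternatives. Probe sets 100355_g_at and 100354_at, with heart medians of 137.1 and 12.3, fell by 2.66 and 2.29 on the log2 scale against leg (adjusted p = 4.56e-07 and 2.59e-06). All 3 probe sets separated heart from both skeletal muscles without overlap, and all held in every alternative.

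**Figure D2:**
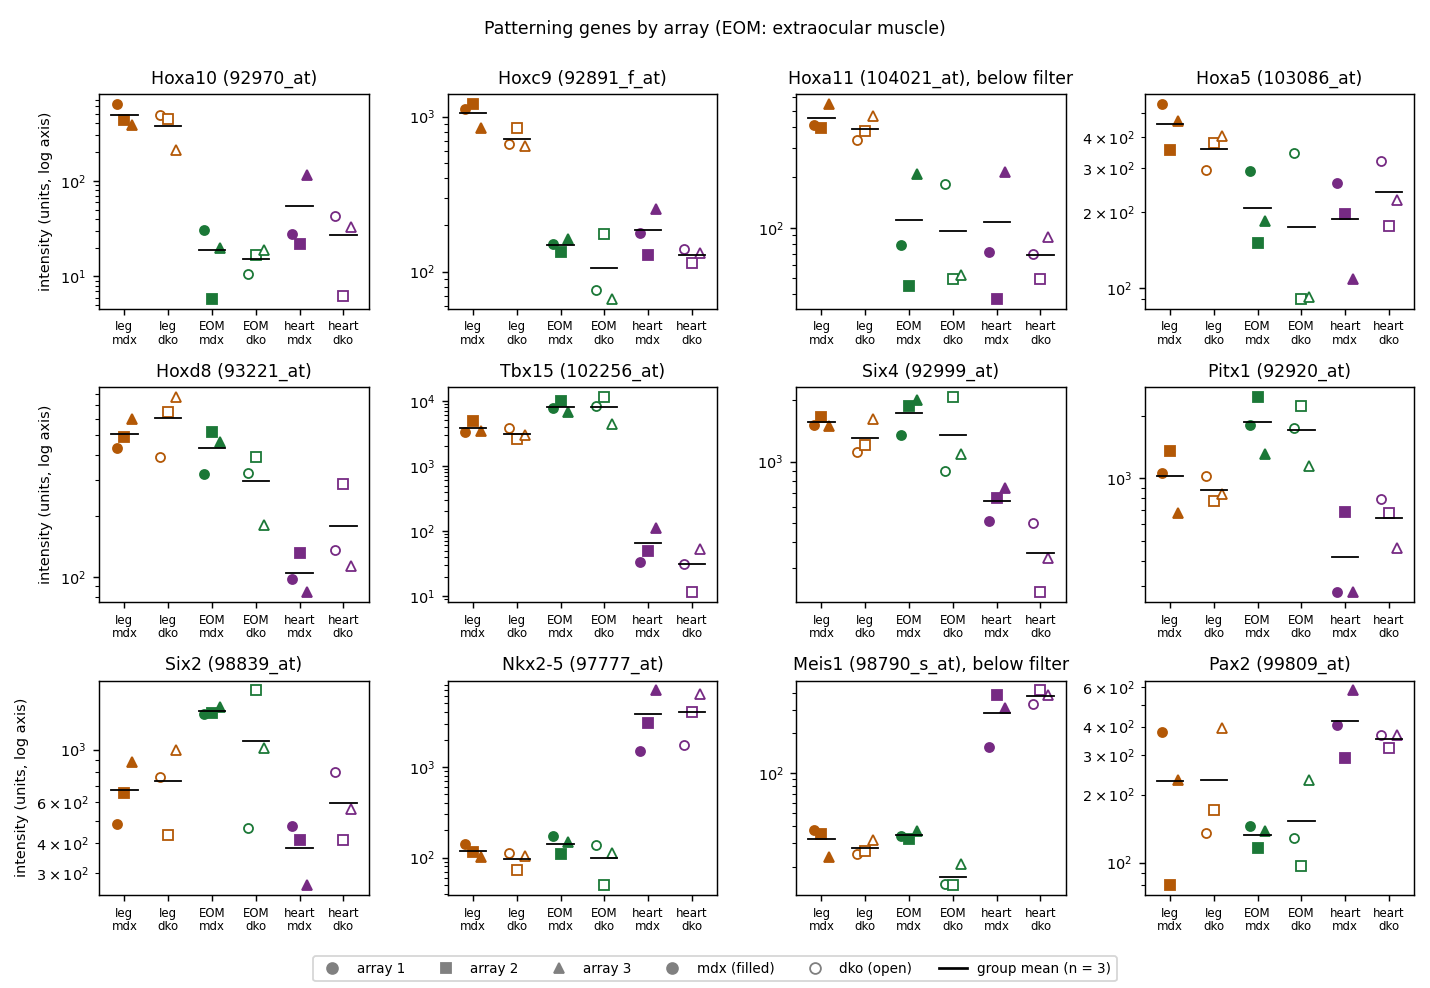
Intensity (log axis) of 12 probe sets on each array, by tissue and genotype; filled symbols are mdx, open symbols dko, the shape is the array number and the line the group mean of 3. Hoxa10, Hoxc9 and Hoxa11 stand highest in leg, Tbx15 and Six4 lowest in heart, and Nkx2-5 and Meis1 highest in heart.

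Six4, which takes part in switching on muscle determination genes, was measured by 3 probe sets. Probe set 92999_at gave 510.0, 662 and 742 units in mdx and 496, 227 and 334 in dko heart, 1506.5, 1664 and 1504 and 1116, 1206 and 1613 in leg, and 1348, 1879 and 2002 and 900.4, 2077.5 and 1084 in extraocular muscle. Heart lay below both muscles on every array (log2 difference -1.32 ± 0.192 (SE), adjusted p = 0.000103 against leg; log2 difference 1.37 ± 0.192 (SE), adjusted p = 8.91e-05 for extraocular muscle against heart). The other probe sets, 93001_at and 93000_g_at, fell by 1.23 and 0.98 from leg to heart on the log2 scale (adjusted p = 2.81e-05 and 0.00112), again without overlap. Between extraocular and leg muscle their differences were 0.05, -0.09 and -0.19 with SEs of 0.192, 0.159 and 0.185, none of them called.

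Among Hox genes, Hoxa10 read 27.5, 21.7 and 116 units in mdx and 42.4, 6.2 and 33.0 in dko heart, below every leg array (log2 difference -1.50 ± 0.162 (SE), adjusted p = 4.15e-06). Hoxc9 read 179, 129 and 252 and 140.1, 114 and 131.5 (log2 difference -1.69 ± 0.140 (SE), adjusted p = 1.87e-07). Heart and extraocular muscle overlapped for both genes, with log2 differences of -0.16 ± 0.162 and -0.14 ± 0.140 (SE) that were not called. Hoxa11 read 37.5 to 216.1 units in heart, below all leg arrays (log2 difference -1.22 ± 0.187 (SE), adjusted p = 0.000226, in the fit of all probe sets).

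Hoxd8, a trunk gene of the middle of its cluster, separated heart from leg. Its probe set 93221_at gave 429.5, 487 and 597.5 units in mdx and 392, 650.3 and 768 in dko leg, and 97.5, 132 and 84.3 and 136, 288 and 113 in heart. The tissues did not overlap (log2 difference -1.23 ± 0.178 (SE), adjusted p = 9.39e-05). In extraocular muscle it read 323, 517 and 462 in mdx and 324, 389 and 179.7 in dko, above heart in 6 of 6 pairs (log2 difference 0.78 ± 0.178 (SE), adjusted p = 0.0059 for extraocular muscle against heart). The second probe set, 160460_at, had medians of 1190 units in leg, 983.3 in extraocular muscle and 641.8 in heart (log2 difference -0.86 ± 0.253 (SE), adjusted p = 0.024 for heart against leg). That call ended without leg mdx 2, leg dko 1 or 2, or either heart array numbered 3 (-0.83 to -0.68), and the block gave an adjusted p of 6.74e-05.

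Hoxc6, a gene of the forelimb and thoracic level, ran over 162 to 832 (median 511) units in leg and 112 to 252.5 (median 182) in heart, and was lower in 6 of 6 pairs (log2 difference -0.84 ± 0.251 (SE), adjusted p = 0.0265). Its call ended without leg mdx 1 or 2, leg dko 1 or 2, heart mdx 3 or heart dko 1 (-0.79 to -0.71) and held with the block (adjusted p = 0.00387). Hoxa5 ran over 108 to 321 (median 211) units in heart (log2 difference -0.60 ± 0.192 (SE), adjusted p = 0.0399 against leg). That call ended without any 1 of 8 arrays, heart mdx or dko 2 or 3, leg mdx 1 or 3, or leg dko 2 or 3 (-0.61 to -0.51), and with an offset of 16 (-0.91, adjusted p = 0.0531), and held with the block (adjusted p = 0.00544). Hoxa9 was not called without the block (log2 difference -0.57 ± 0.230 (SE), adjusted p = 0.101; 0.0248 with it).

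Pitx1 gave 281, 684 and 282 units in mdx and 792, 678 and 461.5 in dko heart, lower than leg in 6 of 6 pairs with overlapping ranges (log2 difference -0.73 ± 0.225 (SE), adjusted p = 0.0323). The call ended without any 1 of 8 arrays, leg mdx 1 or 2, leg dko 1 or 3, heart mdx 1 or 3, or heart dko 2 or 3 (-0.75 to -0.63). Against extraocular muscle heart did not overlap (log2 difference 1.51 ± 0.225 (SE), adjusted p = 0.000158 for extraocular muscle against heart, 2.86-fold).

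The block alone called another 6 probe sets between heart and leg. Hoxa4, Pax2 and Tbx2 104655_at, a T-box repressor of chamber genes, were higher in heart (log2 differences 0.37, 0.53 and 0.45; adjusted p = 0.0384, 0.018 and 0.0201). Hoxa11os, Hoxa9 and Nkx2-9 were lower (log2 differences -0.91, -0.57 and -0.59; adjusted p = 0.033, 0.0248 and 0.0131). Without the block the adjusted p of these 6 ran from 0.0541 for Nkx2-9 to 0.264 for Hoxa4. Nkx2-9, a homeobox gene of the ventral neural tube, read 184.2 to 467.7 units in leg and 116.1 to 167.6 in heart, without overlap. Counting it, 11 of 46 probe sets did not overlap between heart and leg, 1 higher and 10 lower, where 11.9% of all probe sets tested did not, 6.2% higher and 5.67% lower. Over the 90 probe sets it was 13, with Meis1 and Hoxa11 added, where 8.82% of all did not overlap.

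Beside these genes, sums of cell type markers differed between heart and leg. The fibroblast sum was 58878 to 93934 units in heart and 84935 to 180332 in leg, with 6 of 11 markers lower and 1 higher. The satellite cell sum was 8362 to 13510 in heart and 16344 to 20144 in leg, with 4 of 8 lower. The endothelial sum was 31626 to 48243 in heart and 14267 to 18903 in leg, with 7 of 9 higher. For skin and mucosal epithelium the sum was 25810 to 37979 in heart and 5928 to 12081 in leg, with 2 of 12 higher and 0 lower. Their part in the lower Hox, Six4 and Tbx15 signal of heart was not tested.

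Extraocular muscle and heart were then set against each other, with arrays that both comparisons above also use. Of the 46 probe sets 9 were higher and 2 lower in extraocular muscle, which is 23.9%, against 15.2% of all probe sets tested. By direction 19.6% were higher and 4.35% lower, against 7.91% and 7.31%. The 11 belong to 7 of the 40 genes tested, and probe sets of one gene share their target. Of the 2 lower, Nkx2-5 passed the filter only through heart arrays. With no filter 12 of 90 probe sets were called, which is 13.3%, against 10.9% of all. The block gave 14 calls, 12 higher and 2 lower (30.1% of all, 14.5% higher and 15.7% lower). Of the 22 Hox probe sets 1 was called, Hoxd8 93221_at, and of the 24 others 10 were: Tbx15 and Six4 with 3 probe sets each, Pitx1, Six2, Nkx2-5 and Pax2. Without overlap of the arrays were 9 of 46, 7 higher and 2 lower, where 10.4% of all probe sets tested did not overlap, 5.41% higher and 4.98% lower. Over the 90 probe sets it was 10, with Meis1 added, where 7.7% of all did not overlap.

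Six2, which maintains progenitors in the kidney and the skull base, gave 1420.1, 1426.5 and 1521 units in mdx and 467, 1783 and 1019 in dko extraocular muscle, and 473, 413 and 266 and 803, 416 and 559 in heart. The mdx arrays were well apart, while dko extraocular array 1 lay inside the heart range (log2 difference 1.10 ± 0.25 (SE), adjusted p = 0.00607, 2.14-fold higher in extraocular muscle). In leg it read 484, 656 and 887 in mdx and 768.5, 435 and 1000.1 in dko, and the difference between extraocular and leg muscle was not called (log2 difference 0.68 ± 0.25 (SE), adjusted p = 0.126). Pax2, a regulator of kidney, eye and ear, gave 145, 116 and 138 and 128, 97 and 233 units in extraocular muscle. Heart read 407, 289 and 579.6 and 367, 323 and 367, above every extraocular array (log2 difference -0.84 ± 0.208 (SE), adjusted p = 0.0105). Leg lay across both, from 79.4 to 393.3. The calls of Six2, Pax2, Hoxd8 93221_at and Six4 93000_g_at held without any single array. Each ended without all 6 arrays of number 2 (0.84, -0.86, 0.80 and 0.81), and also without number 3 for Six2 (0.98) or number 1 for Pax2, Hoxd8 and Six4 (-0.82, 0.78 and 0.63). With the block alone, Pax4, Tbxas1 and Hoxd8 160460_at were called higher in extraocular muscle (log2 differences 1.04, 0.42 and 0.67; adjusted p = 0.0172, 0.0167 and 0.000773, and 0.0583, 0.0716 and 0.0946 without it).

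**Figure D3:**
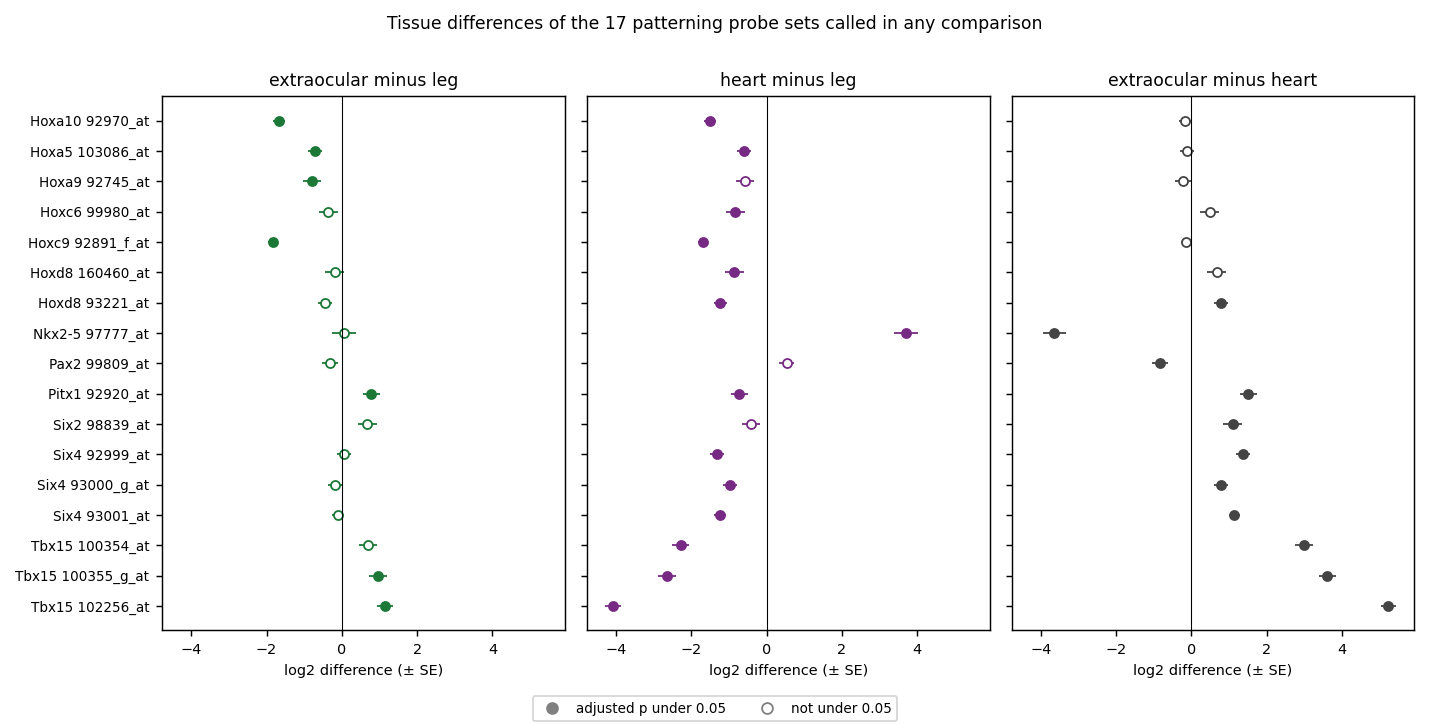
Log2 differences ± SE of the 17 probe sets called in any tissue comparison, in 3 panels for extraocular minus leg, heart minus leg and extraocular minus heart; filled points had an adjusted p under 0.05, and each tissue's arrays are used in 2 panels. Tbx15 lies furthest from 0 in the panels with heart, and Hoxc9 and Hoxa10 in the panel of extraocular minus leg.

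The tissue differences were also computed within each genotype, from the means of 3 arrays against 3, with the spread still taken from the fit of all 18 arrays. In mdx and in dko alike, Hoxa10 and Hoxc9 were lower in extraocular muscle than in leg (Hoxa10 -1.79 and -1.54, Hoxc9 -1.94 and -1.71 on the log2 scale, all called). In heart against leg Tbx15 102256_at differed by -4.13 and -4.05, Nkx2-5 by 3.56 and 3.83 and Six4 92999_at by -1.11 and -1.53, all called in both. Hoxa5, Hoxc6 and Hoxd8 160460_at in heart against leg were called in neither genotype (adjusted p from 0.0755 to 0.518). Pitx1 in heart against leg was -1.07 in mdx and -0.39 in dko, called in mdx, and Six2 in extraocular muscle against heart was 1.58 and 0.61, called in mdx. Hoxd8 93221_at in extraocular muscle against heart was 1.14 and 0.43, called in mdx, and Pax2 there was called in neither (-0.95 and -0.72, adjusted p = 0.0663 and 0.185). Between extraocular and leg muscle Hoxa5, Hoxa9, Pitx1 and Tbx15 100355_g_at were called in neither genotype, and Tbx15 102256_at in dko (1.04 with an adjusted p of 0.0588 in mdx, and 1.25 with 0.0365 in dko). The difference between genotypes in these tissue differences was tested for every member, and 0 of 46 were called in any of the 3 tests (percent of all probe sets called 0.0, 0.0 and 0.0 by limma; unadjusted p under 0.05 for 0, 2 and 1 of the 46). With the block 0 members were called either, and 0.0338%, 0.0675% and 0.0% of all probe sets.

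The remaining 29 probe sets tested were called in no tissue comparison without the block. Among the Hox genes these include Hoxa4 97747_r_at (1628 to 4809 units over the 18 arrays), Hoxb8 96418_r_at (1031 to 3866), Hoxc8 93378_at (135.1 to 648.6) and Hoxd10 103741_at (127.8 to 1109). The suffix _r marks sets designed under relaxed rules, so the Hoxa4 and Hoxb8 signals are uncertain as levels of their genes, and their other probe sets did not pass the filter. Outside the Hox clusters they include the craniofacial gene Msx1 (162 to 1274), Msx3 (129.2 to 848), Pax4 (240.1 to 1901), Tbx6 (215.2 to 1304), Pitx3 (114.1 to 1110) and, of the genes that are no transcription factors, Tbxas1 (699.8 to 1808). Pax3, which marks migrating limb muscle precursors, read 44.8 to 655.9 units.

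Some members followed the array number. Of the 46 probe sets 13 were highest on array 1 in at least 5 of the 6 groups, where 17.2% of all probe sets tested were. Hoxb7 and Hoxb8 96418_r_at were highest on array 1 in 6 of 6 groups. On array 3 10 of the 46 were lowest and 5 highest in at least 5 groups, where 29.0% and 20.3% of all were. Tbx15 100354_at and Pitx3 were highest on array 3 in 6 of 6 groups.

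The third question is whether the dko genotype changed these genes. No member was called in any tissue: 0 of 46 in extraocular muscle, leg and heart, where limma called 0.0225%, 0.0563% and 0.0% of all probe sets. At an unadjusted p under 0.05 there were 0, 2 and 3 members. With the block the member counts were also 0, with 4, 7 and 4 at an unadjusted p under 0.05, and 0.158%, 1.2% and 0.0% of all probe sets called. The median log2 difference of the members was -0.107, -0.233 and -0.0786 in the 3 tissues, against -0.00623, -0.0399 and -0.012 over all probe sets tested. The 95% confidence interval of a single member reached a median of 0.72 to either side on the log2 scale.

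Hoxa13, which patterns the digits and the genital tract, had the smallest p of the members in each tissue. It passed the filter only through leg mdx array 3, extraocular mdx array 2 and heart dko array 1. In leg it gave 319, 388 and 654 units in mdx and 84.4, 103 and 215 in dko, all dko arrays lower (log2 difference -1.03, 95% confidence interval -1.69 to -0.37, adjusted p = 0.373; 0.0537 with the block). In heart it gave 135.5, 120.4 and 151 in mdx and 540.1, 319.5 and 256 in dko, all dko arrays higher (0.80, 0.14 to 1.46, adjusted p = 1; 0.61 with the block). In extraocular muscle the values were 189, 475 and 92.0 and 148, 118 and 55.0, which overlapped (-0.52, -1.19 to 0.14). Myh7 was far higher in dko leg, as given above. The summed signal of 9 cartilage, tendon and bone markers was 13347 to 17007 units in mdx and 8533 to 12050 in dko leg. It was also lower in dko extraocular muscle (10565 to 13839 in mdx and 6572 to 9829 in dko), where Hoxa13 overlapped. Of the 6 such markers tested 0 were called between genotypes in either tissue. The part of Myh7 or of these markers in the leg difference was not tested. The test of the difference between the heart and the leg change gave 1.83 (0.89 to 2.77) with an adjusted p of 1, and 0.0866 with the block.

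The other members of smallest p in leg, where the same holds, were Hoxc9 (-0.46, -0.88 to -0.04, adjusted p = 0.703) and Tbx6, a gene of the trunk mesoderm (-0.64, -1.30 to 0.02, adjusted p = 0.824). In heart they were Six4 92999_at (-0.66, -1.23 to -0.08) and Tbx2 104655_at (-0.64, -1.23 to -0.05), and in extraocular muscle Hoxd8 93221_at (-0.39, -0.92 to 0.15) and Tbx2 104655_at (-0.41, with an interval reaching 0.18), each with an adjusted p of 1. Arrays of the genotypes did not overlap for 0, 4 and 3 members in extraocular muscle, leg and heart (0.0%, 8.7% and 6.52%), against 5.65%, 9.95% and 3.92% of all probe sets tested. Of all probe sets 2.99%, 5.02% and 1.76% were higher in dko and 2.66%, 4.93% and 2.16% lower. Those in leg, all lower in dko, were Hoxa11os, Hoxc9, Hoxa13 and Dlx6os2, and those in heart were Hoxa13 and Hoxb13, higher, and Six4, lower.

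**Figure D4:**
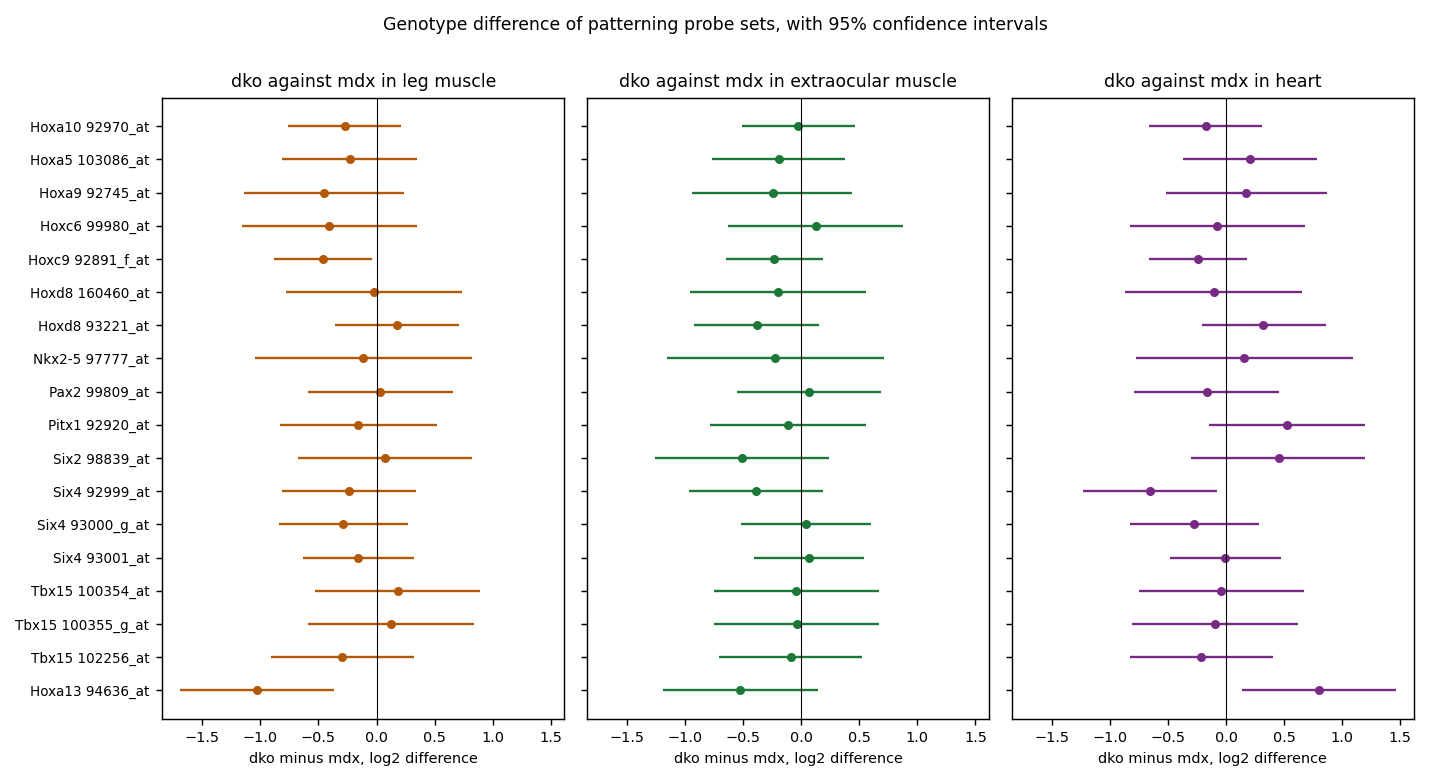
Log2 difference of dko minus mdx with its 95% confidence interval (fit of all 18 arrays) in leg, extraocular muscle and heart, for Hoxa13 and the 17 probe sets called in a tissue comparison. Most intervals include 0, and Hoxa13 lies at -1.03 in leg and 0.80 in heart, neither past the adjusted threshold.

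Partners and neighbours of these factors were read from a list of 84 genes, of which 63 have a probe set of their own and 42 were tested. Between extraocular and leg muscle 1 rose and 2 fell, and with the block Shox2, a limb gene, and Aldh1a1 were called too (log2 differences -0.93 and 0.42; adjusted p = 0.000871 and 0.0267, and 0.0936 and 0.1 without it). Eya2, a coactivator of sine oculis family proteins, ran over 1228 to 2377 units in extraocular muscle and 272.9 to 838.8 in leg (log2 difference 1.44, adjusted p = 0.00093). En1, an engrailed gene of dorsal and ventral limb identity, ran over 69.4 to 151.1 against 450.3 to 684.6 in leg (-1.43, adjusted p = 2.93e-05). Barx1, a homeobox gene of jaw and stomach, ran over 110.4 to 371 against 389.7 to 668.6 (-1.10, adjusted p = 0.000986). Without the block the other 39 of the 42 were not called. En1 passed the filter only through leg arrays, and Zfpm2 and Evx1, described next, only through heart arrays.

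Between heart and leg 10 of the 42 rose and 7 fell. Among 8 heart transcription factors tested 5 rose: the zinc finger factors Gata6 (1631 to 4672 units in heart and 60.3 to 225.9 in leg, log2 difference 3.31, adjusted p = 2.98e-07) and Gata4 (1.51, adjusted p = 0.012), their cofactor Zfpm2 (1.48, adjusted p = 0.000794), Hand2 of the right ventricle (1.26, adjusted p = 0.00775) and the conduction system gene Irx3 (1.32, adjusted p = 5.32e-06). The muscle enhancer factor Mef2c fell (-3.00, adjusted p = 6.39e-05). Tcf21, a gene of head muscle and of epicardial fibroblasts, rose (1.99, adjusted p = 5.14e-06), and the Hox cofactors Pbx2 and Pbx3 rose by 0.68 and 0.69 (adjusted p = 0.00459 and 0.00391). En1, Barx1 and the limb mesenchyme gene Prrx2 fell (-1.27, -1.13 and -1.03), and so did Aldh1a1, an enzyme of retinoic acid synthesis (-1.71, adjusted p = 2.22e-07). Evx1 and Shh rose and Tgif1 and Tle1 fell, with log2 differences of 0.87, 1.21, -0.49 and -0.73. The block also called Alx4 and Lmx1b higher (0.75 and 0.85; adjusted p = 0.04 and 0.0125) and Shox2 and Meox2 lower (-0.55 and -0.51; adjusted p = 0.0156 and 0.0368), with adjusted p from 0.0541 to 0.338 without it. Between extraocular muscle and heart 6 rose and 10 fell, among them Twist1, a factor of head and limb mesenchyme (0.99, adjusted p = 0.0126). There the block also called Tle1 higher (0.53, adjusted p = 0.00414) and Pbx2, Shh and Ptch1 lower (-0.40, -0.66 and -0.36; adjusted p = 0.0325, 0.0199 and 0.0295), with adjusted p from 0.104 to 0.35 without it. Of the 42 genes 0 were called between dko and mdx in any tissue by limma.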

How the data were processed

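The values are array intensities on a linear scale, as deposited by the authors in 1 table of 18 arrays with 12488 probe sets; the software that made them and detection calls are not given in the sources used here. Trimmed array means lay between 1500.69 and 1501.15, so the arrays had been scaled to a common level before deposit. No depth applies, and the number of arrays limits the precision. Probe sets were named through the platform annotation, and 66 control probe sets were left out.

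For each probe set log2(intensity + 166.7) was fitted on the 6 groups with limma 3.58.1 in R 4.3.3, the offset being the median of the 25th percentiles of the arrays. Probe sets had to exceed an array's 40th percentile in at least 3 of 18 arrays, which left 8888, and p-values were adjusted by Benjamini-Hochberg within each comparison. Tissue comparisons average both genotypes. Values are given for every member called in a tissue comparison, those whose arrays do not overlap, and the members of smallest p between genotypes. Members and gene lists were chosen with earlier results of these data known. The fit was tested on simulated data.

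The labels give replicate numbers 1 to 3 in every group. Deviations from the group means of arrays of 1 number correlated at 0.404 to 0.751 within a tissue (9 pairs) and at 0.327 to 0.74 across tissues (36 pairs), all above 0.1. A fit with the number as a block is therefore given where it changes a call. The correlations show that arrays of 1 number share deviations, not that they are matched samples. The labels do not say what a number stands for. SEs and adjusted p given without mention of the block come from fits without it, so their spread includes differences between the numbers. Alternatives were other normalizations, offsets, no filter, tissue contrasts within each genotype (from the same fit), fits of only the groups compared, and leaving out arrays. Motifs were counted in RefSeq windows of GRCm38.p6.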

Additional observations from a re-analysis of the deposited data

Results flagged for a closer look

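Hoxa13 94636_at was singled out because its dko and mdx arrays did not overlap in leg or in heart and lay in opposite directions there. The change from mdx to dko was -1.03 on the log2 scale in leg and 0.80 in heart, and the difference between these changes was 1.83 (95% confidence interval 0.89 to 2.77). That difference had an unadjusted p of 0.000797 and an adjusted p of 1 in limma, and 0.0866 with the replicate block, so it did not pass the threshold in either fit. A single probe set reports the gene, and its signal was 55.0 to 653.8 units over the 18 arrays. That probe set passed the filter only through leg mdx 3, extraocular mdx 2 and heart dko 1, its brightest array in each tissue.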

How the results depend on the processing

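Of the tissue calls of members, 2 of 7 between extraocular and leg muscle, 10 of 14 between heart and leg and 7 of 11 between extraocular muscle and heart held in every alternative run, and 0 reversed. Between extraocular and leg muscle the main fit called 7 members; 4 were called with an offset of 16, 4 with only the groups compared, 3 within dko, 2 within mdx and 11 with the replicate block. The values within a genotype take their spread from the fit of all 18 arrays. Over all probe sets the main fit called 688, 1694 and 1353 in the 3 tissue comparisons. The replicate block gave 1775, 3153 and 2679, within mdx 357, 886 and 627 were called, and within dko 190, 951 and 681. Between dko and mdx in extraocular muscle 2 probe sets were called, against 0 with scaling to the 75th percentile, 0 with only the groups compared, 1 with an offset of 500 and 14 with the replicate block. In leg 5 were called, against 0 with only the groups compared, 1 and 10 with offsets of 16 and 500, and 107 with the replicate block. For the difference of the genotype change between extraocular and leg muscle 0 were called, with 1 for an offset of 500 and 3 with the replicate block, and between heart and leg 0, 1 and 6. Leaving out 1 array, or all 6 of a number, gave 135 to 680, 770 to 1673 and 530 to 1388 calls over all probe sets in the 3 tissue comparisons, and 2 to 7, 10 to 15 and 7 to 12 among the members. For dko against mdx it gave 0 to 3 in extraocular muscle, 0 to 17 in leg and 0 to 1 in heart, and for the differences of the genotype change 0 to 2, 0 to 1 and 0. The causes were not tested, beyond the fewer arrays in the fits that leave some out. Where a probe set is dim in a tissue, the offset sets the size of its log2 difference.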
